A study of Rattus norvegicus with 8 samples.

Results

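The 10 genes described here encode enzymes that remove superoxide and peroxides: the superoxide dismutases Sod1 and Sod2, catalase (Cat), the glutathione peroxidases Gpx1 and Gpx4, and the peroxiredoxins Prdx1, Prdx2, Prdx3, Prdx5 and Prdx6. They were taken by symbol from a table of 24059 genes. Each symbol had 1 row, and all 10 passed the filter on low counts, among 16976 genes tested. Their transcripts were measured by polyA-enriched RNA sequencing of GFP-positive germ cells from the testes of prepubertal Sprague-Dawley rats carrying the GCS-EGFP transgene. In the doxorubicin group, 4 rats (numbers 2, 3, 6 and 8) received 5 mg/kg of the drug in vivo on postnatal day 6. In the control group, 4 rats (numbers 1, 4, 5 and 9) received vehicle. Cells of both groups were isolated 24 h after exposure, all 8 rats carried the reporter, and the labels number each library as a separate rat. The labels also carry the entry SSC under cell line, without further detail. The question put to these genes is whether their transcript levels moved in the day after exposure.

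Superoxide dismutases turn superoxide into hydrogen peroxide, with a copper and zinc enzyme in the cytosol (Sod1) and a manganese enzyme in mitochondria (Sod2). Hydrogen peroxide is then removed by catalase in peroxisomes, by glutathione peroxidases at the expense of glutathione, and by peroxiredoxins, most of which are reduced again by thioredoxin. Doxorubicin is an anthracycline that poisons topoisomerase II and can also cycle between quinone and semiquinone forms, which produces superoxide, and oxidative stress is a known part of its toxicity in the heart.

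RefSeq promoter sequences of the rat assembly GRCr8 were at hand for 9 of the 10 genes, Prdx6 being the exception, and the 250 bases before each listed start were searched on both strands. The core of the antioxidant response element, bound by Nrf2 with small Maf proteins, was searched as TGACNNNGC. It occurred before Sod2 and Prdx1, 2 of 9 genes, against 10.1% of all 33469 promoters in the table. For each motif, members were counted by gene over all its listed starts, while the share of all promoters counts each listed start, so the units differ. The TATA box, searched as TATAAA, occurred before Sod1 and Prdx1, against 12.9% of all promoters. The 3 promoters that hold either motif are shown because they let the reader see which members carry these letters. Capitals mark TGACNNNGC, which reads on the opposite strand in both genes, and TATAAA, which reads on the same strand. They are, in GRCr8, chr5:135383656-135383905 on the plus strand for Prdx1, chr1:50050169-50050418 on the minus strand for Sod2 and chr11:42942573-42942822 on the plus strand for Sod1.
Prdx1: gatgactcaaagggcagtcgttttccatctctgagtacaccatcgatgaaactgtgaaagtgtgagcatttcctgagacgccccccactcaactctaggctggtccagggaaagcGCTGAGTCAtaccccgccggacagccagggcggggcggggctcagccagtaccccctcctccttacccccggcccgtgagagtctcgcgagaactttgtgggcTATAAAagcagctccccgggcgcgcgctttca
Sod2: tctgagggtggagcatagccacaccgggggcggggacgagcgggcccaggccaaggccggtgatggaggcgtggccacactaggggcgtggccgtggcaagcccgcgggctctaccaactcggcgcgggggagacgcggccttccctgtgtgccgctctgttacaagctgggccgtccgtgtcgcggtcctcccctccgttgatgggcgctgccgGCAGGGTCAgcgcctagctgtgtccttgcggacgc
Sod1: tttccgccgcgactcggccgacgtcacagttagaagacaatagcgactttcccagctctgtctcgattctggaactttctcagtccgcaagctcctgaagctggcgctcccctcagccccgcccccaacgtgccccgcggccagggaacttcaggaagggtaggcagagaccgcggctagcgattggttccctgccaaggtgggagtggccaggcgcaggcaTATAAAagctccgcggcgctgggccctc
The element core began 135 bases before the Prdx1 start and 35 bases before the Sod2 start. The TATA box began 32 bases before the Prdx1 start and 28 bases before the Sod1 start. The GC box GGGCGG, which Sp1 binds, occurred in 8 of the 9 genes, all except Cat, against 30.5% of all promoters. The letters CCAAT occurred before Sod1, Cat and Gpx4, against 34% of all promoters. The median GC content of the members' 11 promoter windows (Gpx4 has 3 listed starts) was 64.8%, against 51.2% over all promoters. None of the capitals overlap, and a match in letters does not show that a factor binds there.

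Total estimated counts per library ran from 41253800 to 58871100. Abundance is given as CPM (the count relative to library size, on the usual counts-per-million scale, with TMM factors that correct for library composition). CPM is not corrected for transcript length, so levels of different genes are not ranked here. The error of a mean CPM is the SD of its 4 rats, and that of a log2 fold change is its SE. Cdkn1a, the p53 target that encodes the cell cycle inhibitor p21, stood at 35.99, 14.96, 15.1 and 16.9 CPM in doxorubicin rats 2, 3, 6 and 8, and at 6.14, 5.86, 5.37 and 5.56 CPM in control rats 1, 4, 5 and 9. Its groups did not overlap, and rat 2 stood above the other treated rats. Its log2 fold change was 1.86 ± 0.31, called by DESeq2 (adjusted p = 6.47e-06) and not by edgeR (Benjamini-Hochberg adjusted p = 0.107). The germ cell markers Ddx4 and Dazl were abundant in every library, Ddx4 at 386 to 398 CPM after doxorubicin and 351 to 409 CPM in controls. Summed marker levels were 1730 to 1800 CPM after doxorubicin and 1670 to 1770 CPM in controls for 5 germ cell genes. They were 40.1 to 51.8 against 43.6 to 47.6 CPM for 8 Sertoli genes, 5.08 to 11.2 against 7.75 to 9.69 CPM for 7 Leydig genes, and 40.9 to 53.6 against 45 to 53 CPM for 7 peritubular and stromal genes. In the peritubular and stromal list, 6 of 7 log2 fold changes were negative, with a median of -0.26. The positive one was Myh11, at 5.86 to 14.15 CPM after doxorubicin and 3.96 to 6.23 CPM in controls (edgeR adjusted p = 0.561). Summed levels were 85 to 95.1 against 74.2 to 87.3 CPM for 6 endothelial genes, most of it Pecam1, and 4.51 to 5.22 against 3.85 to 4.68 CPM for 7 macrophage and leukocyte genes. The 6 erythroid genes in the table summed to 8.84 to 14.5 CPM after doxorubicin and 6.93 to 8.62 CPM in controls. Within that list, Slc4a1 was higher after doxorubicin (6.08 to 10.8 against 2.62 to 3.36 CPM, edgeR adjusted p = 0.0339), while the globin Hbb was at 0.398 to 1.16 CPM after doxorubicin and 1.17 to 1.74 CPM in controls (edgeR adjusted p = 0.192, DESeq2 adjusted p = 0.0284). The globin Hba-a1 averaged 1.121 CPM after doxorubicin and 2.061 CPM in controls (edgeR adjusted p = 0.206, DESeq2 adjusted p = 0.0439). The erythroid sum without Slc4a1, a split made after its values were seen, was 2.17 to 3.7 CPM after doxorubicin and 4.27 to 5.28 CPM in controls, so the higher full sum was carried by Slc4a1. No listed marker was at 0 in all 8 libraries, and Cyp17a1, a Leydig enzyme, was at 0 in doxorubicin rats 6 and 8. In bulk RNA, fewer cells of a type and less RNA per cell cannot be told apart.

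None of the 10 antioxidant enzyme genes passed the test of doxorubicin against control. With edgeR's quasi-likelihood test over all 16976 genes, 0 of 10 members passed, against 0.112% of all genes tested (0.106% higher and 0.00589% lower after doxorubicin). DESeq2 also called 0 of 10, against 1.02% of all genes, and 0 of 10 had an unadjusted edgeR p below 0.05, against 6.76%. In 0 of 10 members were the doxorubicin and control libraries free of overlap in CPM, against 4.72% of all genes. The log2 fold changes were positive for 4 members and negative for 6, with a median of -0.03 beside -0.0047 over all genes. Their median size regardless of sign was 0.04, beside 0.06 over all genes tested. Those genes included some below 1 CPM, while the members stood at 17.56 CPM or more, so the comparison is not matched in level. A test that is not passed does not show equal levels, so the intervals bound the change. For 8 members the 95% interval of the change after doxorubicin lay between -11.7% (the lower bound of Prdx3) and 9.17% (the upper bound of Prdx6). Cat and Gpx1 had wider intervals, from -16.7% to 9.12% for Cat and from -9.80% to 18.3% for Gpx1.

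**Figure D1:**
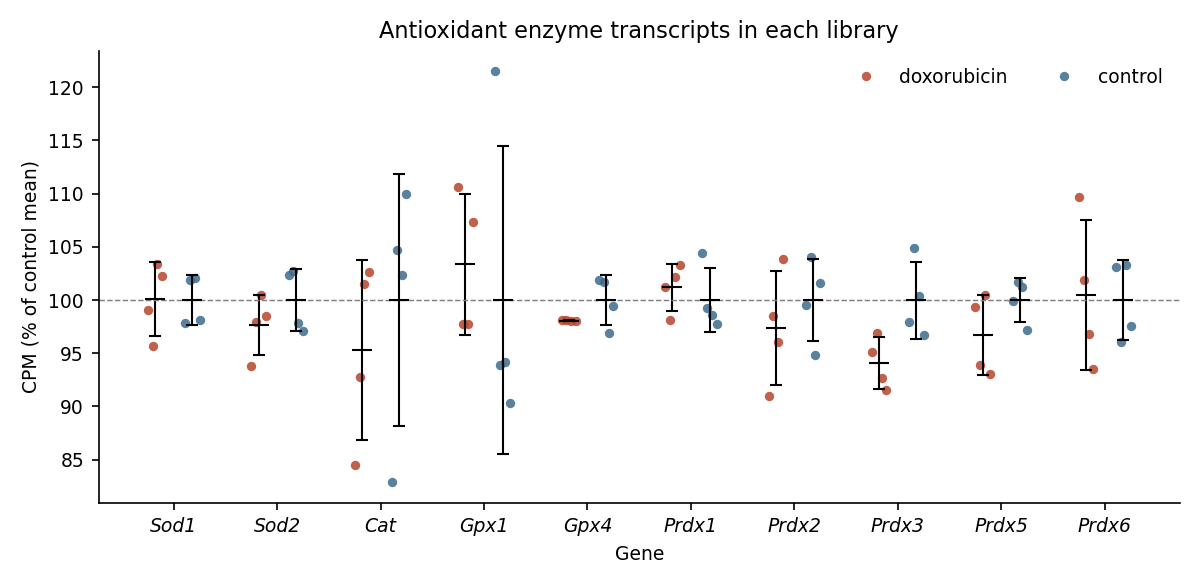
CPM of each antioxidant enzyme gene (x axis) in each library, as a percentage of the control mean (y axis), with doxorubicin to the left of control; points are rats, and bars are the mean and SD of 4 rats. The groups overlap for every gene, least in Prdx3, where the highest doxorubicin library (59.3 CPM) lies just above the lowest control library (59.2 CPM), and Cat and Gpx1 spread the most.

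**Figure D2:**
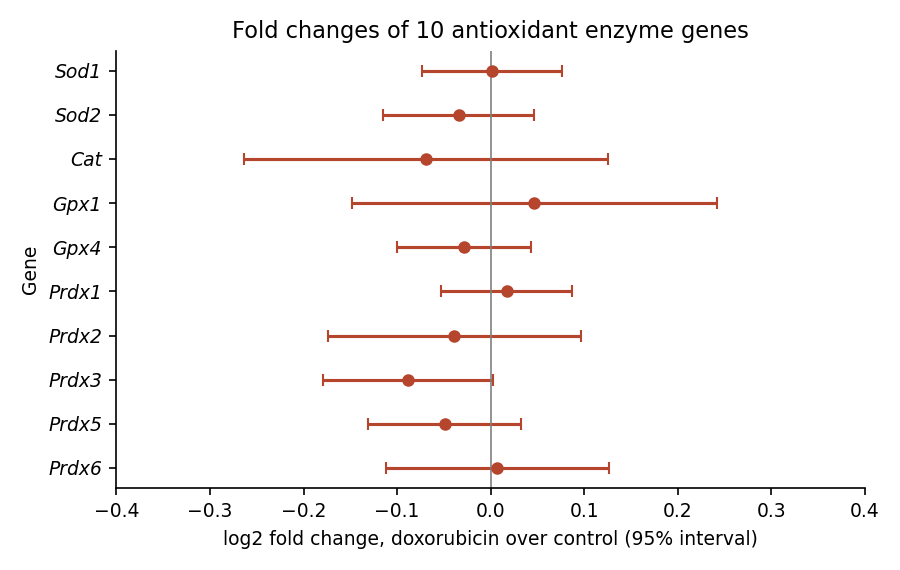
Log2 fold change of doxorubicin over control (x axis) for the 10 genes (y axis), with 95% intervals from edgeR. Every interval includes 0, the Prdx3 interval from -0.18 to 0.0022 only barely, and the widest belong to Cat and Gpx1.

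Neither superoxide dismutase passed the test, and both had narrow intervals around 0. Sod1 (ENSRNOG00000002115.7) stood at 275, 266, 287 and 284 CPM in doxorubicin rats 2, 3, 6 and 8, and at 272, 283, 284 and 272 CPM in control rats 1, 4, 5 and 9. The treated libraries spanned the whole control range, with rat 3 the lowest and rat 6 the highest of all 8. The log2 fold change of Sod1 was 0.0014 ± 0.03, with a 95% interval from -4.97% to 5.42% (edgeR adjusted p = 0.999). Sod2 (ENSRNOG00000019048.5) stood at 104, 109, 111 and 109 CPM in doxorubicin rats 2, 3, 6 and 8, and at 114, 114, 109 and 108 CPM in control rats 1, 4, 5 and 9. Control rats 1 and 4 were higher than all treated rats, and control rats 5 and 9 lay among them. The log2 fold change of Sod2 was -0.03 ± 0.04 (edgeR adjusted p = 0.947). The 95% interval of Sod2, which has the element core before its start, ran from -7.65% to 3.27%.

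Catalase varied among rats in both groups. Cat (ENSRNOG00000008364.7) stood at 26.8, 29.4, 32.2 and 32.5 CPM in doxorubicin rats 2, 3, 6 and 8, and at 26.3, 33.2, 32.5 and 34.8 CPM in control rats 1, 4, 5 and 9. The lowest library of each group, rat 2 and rat 1, lay within 1 CPM of each other. Treated rat 3 lay between these and the remaining libraries. The means were 30.2 ± 2.68 CPM after doxorubicin and 31.7 ± 3.75 CPM in controls (SD, n = 4 each). The fitted log2 difference for Cat was -0.07 ± 0.09 (edgeR adjusted p = 0.96). Red cells are rich in catalase, Gpx1 and Prdx2. The erythroid markers given above differed between groups in both directions, Slc4a1 being higher and the globins lower after doxorubicin by DESeq2, and the part of erythroid RNA in the values of these genes was not tested.

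The 2 glutathione peroxidases are selenoproteins, and they differed in how far rats diverged. Gpx1 (ENSRNOG00000048812.3), the cytosolic and mitochondrial enzyme that reduces soluble peroxides, stood at 37.5, 33.1, 33.1 and 36.4 CPM in doxorubicin rats 2, 3, 6 and 8, and at 41.2, 31.8, 31.9 and 30.6 CPM in control rats 1, 4, 5 and 9. Control rat 1 was the highest of all 8 libraries, and the other controls were the lowest. The log2 fold change of Gpx1 was 0.05 ± 0.09 (edgeR adjusted p = 0.974), and without control rat 1 it was 0.16 (edgeR adjusted p = 0.46), the largest of its values when a library was left out. Gpx4 (ENSRNOG00000013604.8), which reduces lipid hydroperoxides in membranes and guards against ferroptosis, stood between 109.2 and 109.3 CPM in all 4 doxorubicin libraries and at 114, 113, 108 and 111 CPM in control rats 1, 4, 5 and 9. The SD of the treated libraries, 0.0524 CPM or 0.048% of the mean, was smaller than the counting error of 1.48% at the lowest Gpx4 count, which is closer than the counts can resolve. The treated values lay within the control range, and the fitted log2 difference was -0.03 ± 0.03 (edgeR adjusted p = 0.952). The gene has cytosolic, mitochondrial and nuclear forms from different starts, and the table gives their sum only.

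Among the peroxiredoxins, the cytosolic enzyme Prdx1 (ENSRNOG00000017194.6) stood at 553, 537, 559 and 565 CPM in doxorubicin rats 2, 3, 6 and 8, and at 571, 542, 539 and 535 CPM in control rats 1, 4, 5 and 9. Control rat 1 was the highest library and control rat 9 the lowest, with all treated rats between them. Prdx1, whose promoter holds both printed motifs, had a log2 fold change of 0.02 ± 0.03, with an interval from -3.59% to 6.24% (edgeR adjusted p = 0.973). A further row of the table, Prdx1l1, named as a gene like Prdx1, held 0.428% to 0.652% of the Prdx1 count in each library, and the split of reads among the 2 rows is uncertain. Prdx2 (ENSRNOG00000003520.6), the cytosolic peroxiredoxin that is abundant in red cells, stood at 17.6, 19.02, 18.5 and 20.05 CPM in doxorubicin rats 2, 3, 6 and 8, and at 19.2, 20.1, 18.3 and 19.6 CPM in control rats 1, 4, 5 and 9. The groups overlapped over most of their range, and the log2 difference was -0.04 ± 0.06 (edgeR adjusted p = 0.967).

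Prdx3 (ENSRNOG00000010958.6), the peroxiredoxin of mitochondria, had the lowest p of the 10. It stood at 58.2, 59.3, 56.7 and 56.0 CPM in doxorubicin rats 2, 3, 6 and 8, and at 59.9, 64.2, 61.4 and 59.2 CPM in control rats 1, 4, 5 and 9. Treated rat 3 and control rat 9 met at the boundary, and otherwise all treated values lay below all control values. The means were 57.5 ± 1.49 CPM after doxorubicin and 61.2 ± 2.22 CPM in controls, and the fitted log2 difference was -0.09 ± 0.04. Prdx3 was not called by edgeR over all genes (unadjusted p = 0.055, adjusted p = 0.753) or by DESeq2 (adjusted p = 0.782). Of all genes tested, which were not matched to Prdx3 in level, 60.4% had a log2 fold change smaller in size. Prdx5 (ENSRNOG00000021125.9), found in mitochondria, peroxisomes and cytosol, stood at 117, 111, 119 and 110 CPM in doxorubicin rats 2, 3, 6 and 8, and at 118, 120, 119 and 115 CPM in control rats 1, 4, 5 and 9. Treated rats 3 and 8 lay below all controls, and treated rats 2 and 6 lay among them. The log2 difference of Prdx5 was -0.05 ± 0.04 (edgeR adjusted p = 0.902). Prdx6 (ENSRNOG00000066585.1), a peroxiredoxin with a single catalytic cysteine and phospholipase activity, stood at 50.8, 47.2, 44.8 and 43.3 CPM in doxorubicin rats 2, 3, 6 and 8, and at 47.8, 44.5, 47.8 and 45.2 CPM in control rats 1, 4, 5 and 9. Its treated values bracketed the controls, with rat 2 highest and rat 8 lowest. The log2 difference of Prdx6 was 0.0073 ± 0.06 (edgeR adjusted p = 0.996).

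The spread between rats was larger than the counting error in both groups for all members except Gpx4 after doxorubicin. Counts per library ran from 778 to 1134 for Prdx2 and from 22290 to 32440 for Prdx1. The counting error at the lowest count was 3.58% for Prdx2, 2.8% for Gpx1, 2.72% for Cat and 0.67% for Prdx1. The coefficient of variation over rats was 6.39% after doxorubicin and 14.5% in controls for Gpx1, and 8.87% after doxorubicin and 11.8% in controls for Cat. For the other 8 genes it was at most 7.01%, in Prdx6 after doxorubicin. The biological coefficient of variation fitted by edgeR had a median of 4.58% over the 10 genes, beside 9.07% over all genes tested, which were not matched to them in level. It was 9.19% for Cat and 9.18% for Gpx1, and 4.01% for Gpx4.

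**Figure D3:**
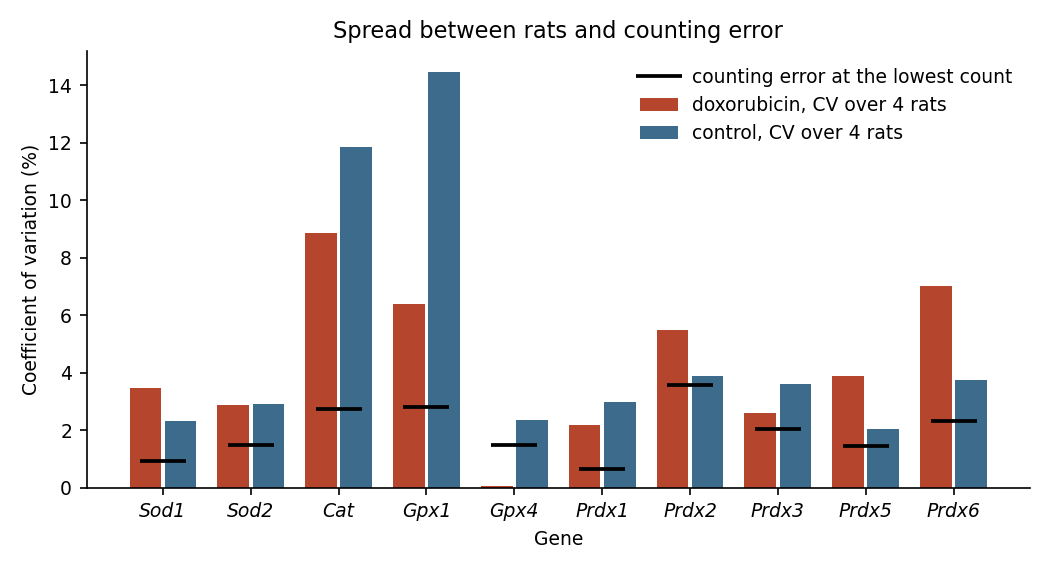
Coefficient of variation over the 4 rats of each group (bars, y axis, in percent) for each gene (x axis), doxorubicin left of control, with the counting error at the lowest count as a black line. Cat and Gpx1 stand well above their counting errors of 2.72% and 2.8%, and Gpx4 after doxorubicin lies far below its line.

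Over the 8 libraries, pairs of members ranged widely in how alike their levels were. Of the 45 pairs of members, Gpx1 and Prdx1 were the most alike, with Pearson r = 0.85 and Spearman rho = 0.83 of log2 CPM over 8 libraries, and r = 0.82 over 6 libraries without control rat 1 and doxorubicin rat 2. The least alike were Cat and Gpx1, with r = -0.84 and rho = -0.83. Control rat 1 and doxorubicin rat 2 had the lowest Cat and the highest Gpx1, and without them r was -0.40 over 6 libraries, so the relation rests largely on those rats. These are descriptions of 8 libraries, with no test, and all genes of a library share its depth and composition. Among 9257 other genes of at least 10 CPM, the gene most like Cat was Dhx8, an RNA helicase of splicing (r = 0.99), and the one most like Gpx1 was Hpn, the transmembrane protease hepsin (r = 0.981). With r above 0.9 there were 141 genes for Cat and 125 for Gpx1, against 6 to 22 for each of the other members. The genes most like the rest were Napg for Sod1 (r = 0.929), Emc6 for Sod2 (r = 0.979), Ctr9 for Gpx4 (r = 0.953) and Reep3 for Prdx1 (r = 0.943). They were Rnf125 for Prdx2 (r = 0.949), Ppig for Prdx3 (r = 0.956), Vil1 for Prdx5 (r = 0.957) and Flrt1 for Prdx6 (r = 0.929). Each is the highest of 9257 values of r over only 8 libraries, and values this high can arise by chance. The r of Dhx8 with Cat and of Hpn with Gpx1 was not recomputed without control rat 1 and doxorubicin rat 2.

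**Figure D4:**
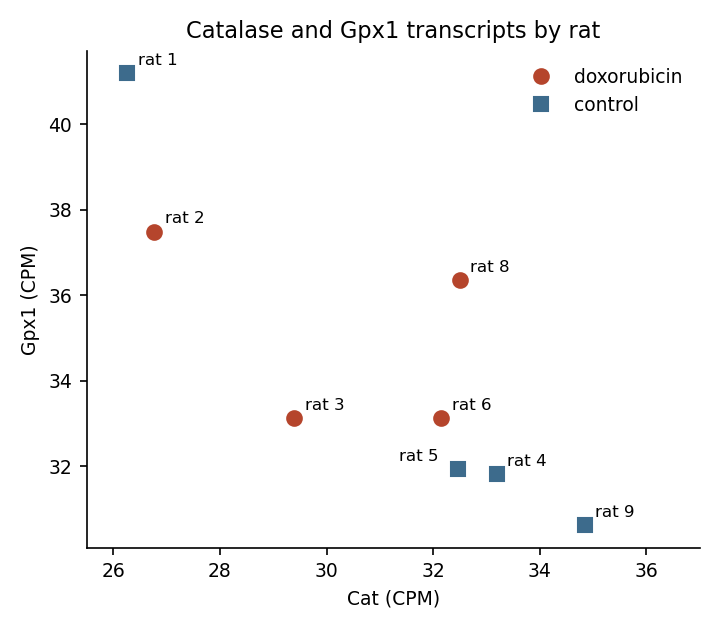
Gpx1 CPM (y axis) against Cat CPM (x axis) in each rat, with doxorubicin as circles and control as squares; the axes do not start at 0. Doxorubicin rat 2 (26.8 CPM Cat, 37.5 CPM Gpx1) and control rat 1 (26.3 CPM Cat, 41.2 CPM Gpx1) lie at low Cat and high Gpx1, apart from the other 6 rats, and each group has 1 rat there.

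The wider pathway was followed through 6 lists with 75 genes, of which 72 were in the table under the symbol used and 68 were tested. Of these, 0 passed edgeR over all genes in either direction. At an unadjusted edgeR p below 0.05, 3 were higher and 2 were lower, 7.35% of the 68 beside 6.76% of all genes. By DESeq2's adjusted p 1 was higher, 1.47% beside 1.02% of all genes, so both shares were near the background. Positive log2 fold changes numbered 35 and negative ones 33, with a median of 0.0058. Of the 12 thioredoxin and glutaredoxin genes, 3 were higher at an unadjusted edgeR p below 0.05 and 0 were lower. These were Glrx3, Txnrd1 and Gsr, all 3 of the higher genes among the 68. Their share of the list was larger than the 6.76% of all genes, which counts both directions, and the list was not tested as a set. Over the whole list 5 log2 fold changes were positive and 7 negative, with a median of -0.017. After adjustment over all genes, 0 of 12 passed edgeR and 1 passed DESeq2. That gene was Glrx3, a glutaredoxin of the cytosol that takes part in iron-sulfur cluster and iron handling. It stood at 164, 135, 142 and 142 CPM in doxorubicin rats 2, 3, 6 and 8, and at 127, 117, 122 and 123 CPM in control rats 1, 4, 5 and 9. Every treated library lay above every control library, and rat 2 was the highest. Groups free of overlap in CPM were found in 4.72% of all genes. Its log2 fold change was 0.25 ± 0.05 (edgeR adjusted p = 0.109, DESeq2 adjusted p = 0.00703). Txnrd1, the cytosolic thioredoxin reductase, and Gsr, glutathione reductase, which was named after its values were seen, had fitted log2 differences of 0.13 ± 0.06 and 0.10 ± 0.05 (edgeR adjusted p = 0.67 and 0.711). Their 95% intervals, from 0.752% to 18.96% and from 0.288% to 14.93%, did not include 0. Txnrd1 averaged 266 ± 14.2 CPM after doxorubicin and 243 ± 18.95 CPM in controls, and its groups overlapped.

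Of 12 other superoxide, peroxide and copper-loading genes, 0 passed edgeR and 0 passed DESeq2, and 1 was lower at an unadjusted p below 0.05, a count near the 6.76% of all genes. That was Prdx4, the peroxiredoxin of the endoplasmic reticulum and the family member outside the 10. It stood at 77.1, 78.6, 80.2 and 79.3 CPM in doxorubicin rats 2, 3, 6 and 8, and at 90.3, 82.7, 86.4 and 83.4 CPM in control rats 1, 4, 5 and 9. The groups did not overlap, and the log2 fold change was -0.12 ± 0.04 (edgeR adjusted p = 0.445, DESeq2 adjusted p = 0.257). A lack of overlap was found in 4.72% of all genes, and among the list genes it was not particular to Prdx4 and Glrx3. It also held for Ggct, at most 8.39 CPM after doxorubicin and at least 8.443 CPM in controls. Trnau1ap, a selenoprotein synthesis gene named after its values were seen, was at most 39.71 CPM after doxorubicin and at least 40.14 CPM in controls. For Mgst3, a microsomal glutathione transferase, the log2 value was 0.17 ± 0.10 (edgeR adjusted p = 0.803).

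The remaining 4 lists had 0 genes past edgeR and 0 past DESeq2. In glutathione synthesis and transport, 8 of 11 genes were positive, with a median of 0.04 and 1 lower at an unadjusted p below 0.05, again near the 6.76% of all genes. Ggt1, a gamma-glutamyltransferase, averaged 0.217 CPM after doxorubicin and 0.348 CPM in controls (edgeR adjusted p = 0.688). It had only 9 to 23 counts per library. Ggct, gamma-glutamylcyclotransferase, averaged 7.93 CPM after doxorubicin and 8.90 CPM in controls (edgeR adjusted p = 0.775). Of the genes of NADPH supply, 6 of 13 were positive, and Me1, malic enzyme, and Nnt, the mitochondrial transhydrogenase, had fitted log2 differences of 0.07 ± 0.03 and -0.17 ± 0.11 (edgeR adjusted p = 0.738 and 0.854). Of the selenoprotein synthesis genes, on which Gpx1 and Gpx4 depend, 4 of 11 were positive, and Sephs2 and Pstk, which act in making selenocysteine, had fitted log2 differences of 0.09 ± 0.05 and 0.09 ± 0.07 (edgeR adjusted p = 0.837 and 0.914). Of the superoxide-producing oxidases, 9 of 13 were tested and 6 were positive, with a median of 0.11, at summed levels of 28.4 to 37.1 CPM after doxorubicin and 27.7 to 33.1 CPM in controls. Cybb, the phagocyte oxidase subunit, averaged 0.499 CPM after doxorubicin and 0.327 CPM in controls (edgeR adjusted p = 0.797), from only 10.1 to 37.3 estimated counts per library. Noxa1, an oxidase activator, averaged 1.73 CPM after doxorubicin and 1.43 CPM in controls (edgeR adjusted p = 0.797).

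**Figure D5:**
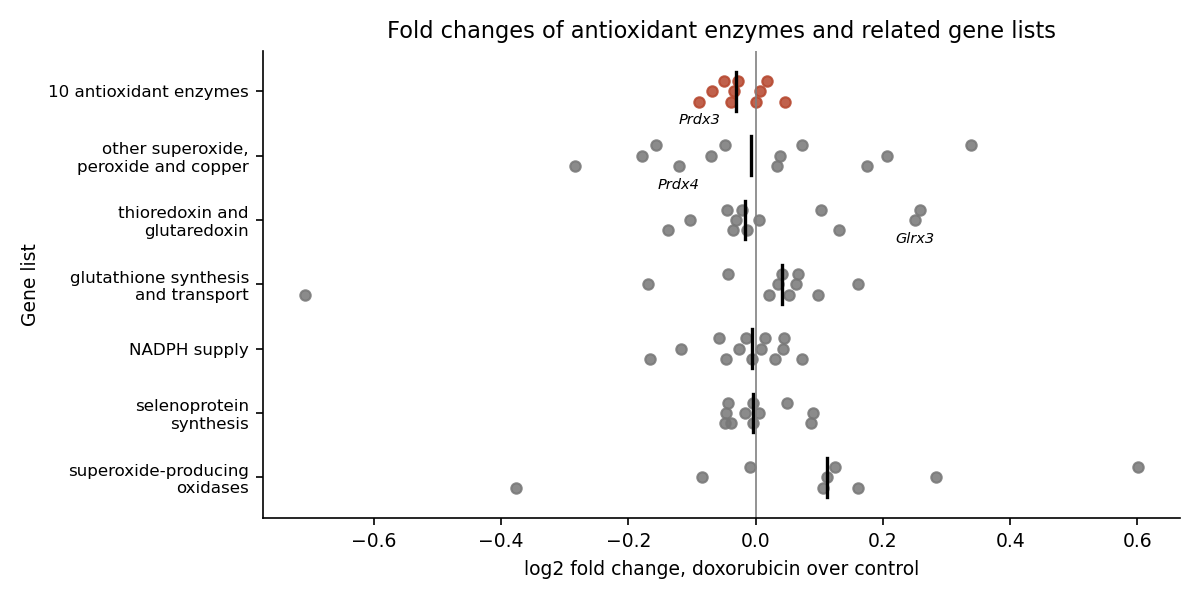
Log2 fold change of doxorubicin over control (x axis) for each tested gene of the 10 antioxidant enzymes (top) and of the 6 related lists (y axis); points are genes and black lines are medians. The 10 enzymes lie between -0.09 and 0.05, and Glrx3 (0.25) and Prdx4 (-0.12) are labelled beside Prdx3 (-0.09).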

How the data were processed

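Germ cell RNA was extracted with a PicoPure kit, and libraries came from the polyA fraction of samples whose RNA integrity number exceeded 8, per the labels' protocols. Tools named in the submitters' processing notes, with no role or order, are kallisto 0.48.0, featureCounts, fastp 0.23.2, Trimmomatic and DESeq2 1.40.2, and the build is rn6. The table deposited by the authors holds estimated counts per gene, not normalized. In each library 32.5% to 33.6% of its values were not whole (tolerance 1e-06), and counts were rounded before testing. Strand and multi-mapping settings were not given in the sources used here. Counts were whole in all 8 libraries for Sod1, Gpx1, Gpx4 and Prdx3, and in 0 for the other 6 members.

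Columns were tied to samples by the names in the labels. Tests ran in R 4.3.3 with edgeR 4.0.16 (filterByExpr, TMM, glmQLFit with robust = TRUE, glmQLFTest, no covariate), and Benjamini-Hochberg adjustment over all 16976 genes kept, at a threshold of 0.05. DESeq2 1.42.0, limma 3.58.1, other scalings, filters, a covariate and leaving out each library were alternatives. The procedure was tested on simulated data. The counting errors stated follow from the counts per library and cover counting only. Pearson r is of log2 CPM with a prior count of 2. All 10 members are named, with the list genes past the threshold or otherwise the 2 of lowest p in each list, and the most alike gene for each member. The members and lists were chosen with earlier results of these data known. Genes of the lists with no row under their symbol (Gpx3, Ggt5, Pgd and Hbb-b1) were not analysed here. Promoters are RefSeq sequences of GRCr8, not of the build named for the counts.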

Additional observations from a re-analysis of the deposited data

Results flagged for a closer look

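Of 60 groups of 4 libraries examined (the 10 members, 12 named list genes without Gsr and Trnau1ap, Cdkn1a itself and the marker sums), 3 held a library that stood apart, and about 1 group in 20, or 3, would do so by chance. Gpx1 stood at 41.2 CPM in control rat 1, above the other controls at 30.6 to 31.9 CPM. Cdkn1a stood at 35.99 CPM in doxorubicin rat 2, above the other treated rats at 14.96 to 16.9 CPM. The sum of the erythroid markers was 14.5 CPM in doxorubicin rat 2, above 8.84 to 9.27 CPM in the other treated rats, and 10.8 CPM of it was Slc4a1.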

How the results depend on the processing

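No member was called under any of the 20 alternatives, where 0 of 200 values passed, and the lowest adjusted p was 0.46, for Gpx1. The directions of Cat, Gpx4, Prdx3 and Prdx5 held throughout, with Prdx3 between -0.0997 and -0.0605 when a library was left out. Gpx4 kept its sign only barely, at -0.0001 within rats 5 to 9. Sign changes occurred in 16 of 200 values, none of them called. The threshold of 0.1, the summing of rows and the omission of robust fitting left each member's log2 fold change as it was, so their values could not change sign. The fits within rat sets were small: control rats 1 and 4 against doxorubicin rats 2 and 3, and control rats 5 and 9 against doxorubicin rats 6 and 8. Sod1 was -0.0005 with limma-voom and -0.0069 with library size only, Prdx6 was -0.0007 with library size only, and within rats 1 to 4 Sod1, Gpx1 and Prdx1 were -0.0299, -0.0412 and -0.0233. Within rats 5 to 9, Sod2, Prdx2 and Prdx6 were 0.0307, 0.0295 and -0.0774. Leaving out 1 library moved Sod1 between -0.0095 and 0.0267 and Prdx6 between -0.0377 and 0.0404. The number of all genes called was 19, against 173 with DESeq2, 53 without robust fitting, 60 at a threshold of 0.1, 61 with the rat number set (1 to 4 or 5 to 9) as covariate, and 1 to 62 when a library was left out (leaving out doxorubicin rat 2 gave 62 calls, doxorubicin rat 6 or control rat 1 gave 11, control rat 9 gave 3, control rat 4 gave 2, and doxorubicin rat 8 or control rat 5 gave 1). Among the pathway lists DESeq2 called 1 gene, Glrx3, with its adjusted p at 0.00703. The edgeR fits and limma-voom called 0 at 0.05, and Glrx3 had adjusted p between 0.0723 and 1 there; the cause was not tested. Control levels moved by less than 1 SD in all 60 values, but most of these could not have done otherwise. Leaving out 1 of 4 rats cannot move their mean by 1 SD. Each member symbol has 1 row, so summing rows changed nothing. Only scaling by library size could have moved a level, and there Sod1 went from 277.6 to 278.4 CPM. No paired analysis was possible because the groups share no rat numbers. Among the 10 members, depth limits Prdx2, at 778 counts or more, most.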
